A study of Mus musculus with 2 samples.

Results

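The genes described here are 10 transcription factors and co-factors of naive pluripotency outside the POU and Klf families: Nanog, Esrrb, Tbx3, Nr0b1, Tfcp2l1, Zfp42, Sall4, Nr5a2, Zscan10 and Zfp296. They were chosen by name, with earlier results of these data known. All 10 were found among the 19505 gene symbols of the array, 14967 of which were measured. A gene counted as measured when at least 1 of its probes was well above background, by the scanner software's own mark, on at least 1 array. Total RNA of R1, a line of mouse embryonic stem (ES) cells, was hybridised to 2 one-colour Agilent arrays, 1 for each group. The day 0 group was undifferentiated ES cells, kept on growth-arrested fibroblast feeders in medium with 15% serum and 1000 U/ml of leukaemia inhibitory factor (LIF), the cytokine that holds mouse ES cells undifferentiated. The day 6 group was embryoid bodies, floating aggregates of cells, taken after 6 days of direct neural differentiation and also labelled as neural precursors. No genetic change is named for either group. The sources used here give neither the medium of day 6 nor any removal of feeders before extraction, so time, medium, feeders and aggregation cannot be told apart. With 1 array per group there was no test, and each difference below describes these 2 RNA samples with no replicate check.

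Naive pluripotency is the state of the epiblast before implantation, and mouse ES cells hold it in culture. It rests on a set of transcription factors that bind near one another's genes together with Oct4 (Pou5f1) and Sox2, and several of them are targets of LIF signalling. When cells leave the state, expression of much of this set falls while Sox2 persists in the neural lineage. Nanog is the homeodomain factor of the set. Esrrb, Nr5a2 and Nr0b1 are orphan nuclear receptors, Tfcp2l1 is a CP2-family factor, Tbx3 is a T-box factor, and Zfp42, Sall4, Zscan10 and Zfp296 are zinc finger proteins.

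Promoter sequences show what the genes share near their starts. RefSeq windows of build GRCm38.p6, from 250 bases before to 50 bases after a gene start, were given for 8 of the 10 genes in 11 windows (Tfcp2l1, Nr5a2, Nanog, Zfp296, Zfp42, Esrrb, Zscan10 and Nr0b1). The octamer letters ATGCAAA, searched on both strands as were all motifs here, were found in 3 of these 8 genes, Nanog, Zfp296 and Zfp42. That is 4 of the 11 windows, beside 4.63% of all 32851 windows of the same length. The windows of Nanog overlap, so the counts of windows here take each motif site of Nanog from both. The 57 bases around each match follow on the strand of the gene, with capitals marking the octamer letters read on the other strand (TTTGCAT) and, in Nanog, the Sox letters CATTGT read on the other strand (ACAATG).
Nanog, chr6:122707389-122707445, plus strand: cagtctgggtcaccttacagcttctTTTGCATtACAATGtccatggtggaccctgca
Zfp296, chr7:19577152-19577208, plus strand: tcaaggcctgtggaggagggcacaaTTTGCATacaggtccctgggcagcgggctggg
Zfp42, chr8:43307163-43307219, minus strand: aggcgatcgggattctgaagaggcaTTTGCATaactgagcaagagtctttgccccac

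In Nanog the octamer began 75 bases before the first of its RefSeq starts and 151 bases before the other, and the Sox letters followed after a gap of 1 base. The octamer began 110 bases before the start of Zfp296 and 185 bases before that of Zfp42. The Sox letters were found in 2 of the 8 genes, Nanog and Esrrb, or 3 of the 11 windows, beside 12.6% of all windows. STAT letters, TTCNNNGAA, were found in Esrrb (178 bases before a start) and Zscan10 (33 bases before). That is 2 of the 11 windows, beside 8.30% of all windows. The Kruppel-like letters CCACCC were found in 7 of the 8 genes, every one except Tfcp2l1, or 9 of the 11 windows, beside 31.5% of all windows. The oestrogen-related receptor letters AAGGTCA (4.72% of all windows) and the T-box letters AGGTGT (13.7%) had no match in the 11 windows. Such matches are short strings of letters and do not show binding. Neither array measured binding.

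**Figure D1:**
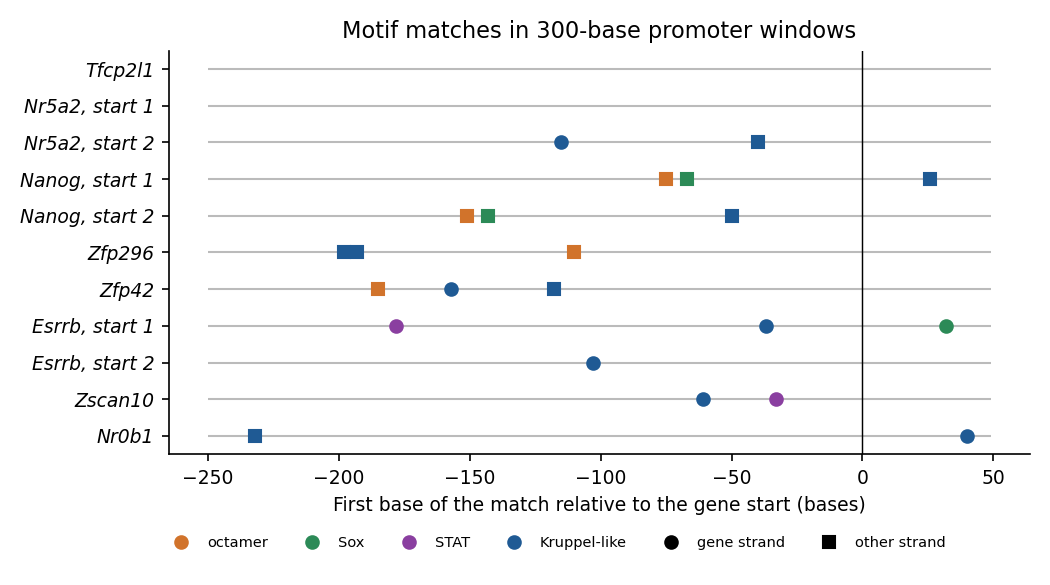
Matches of 4 motifs in the 11 RefSeq promoter windows of 8 naive factor genes, by position in bases relative to the gene start (0), with circles for the strand of the gene and squares for the other strand. Octamer matches lie in Nanog (1 site, seen from both starts), Zfp296 and Zfp42, and Kruppel-like matches lie in 7 of the 8 genes.

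All 10 genes were lower on day 6. Their median difference, day 6 minus day 0, was -6.11 on the log2 scale (69.0-fold lower), with a range from -7.03 to -2.12, beside a median of -0.09 over all 14967 measured genes. At least 2-fold lower were 10 of the 10, beside 20.0% of all measured genes, and at least 16-fold lower were 8 of the 10, beside 1.85%. At least 2-fold higher were 0 of the 10, beside 17.8%. A difference here is that of log2 intensities after each array's 75th percentile was subtracted, and the error beside it is the SD given by the scanner software's error model, which holds no variation between cultures. In RNA from mixed cells, fewer cells that express a gene and less RNA per cell cannot be told apart.

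**Figure D2:**
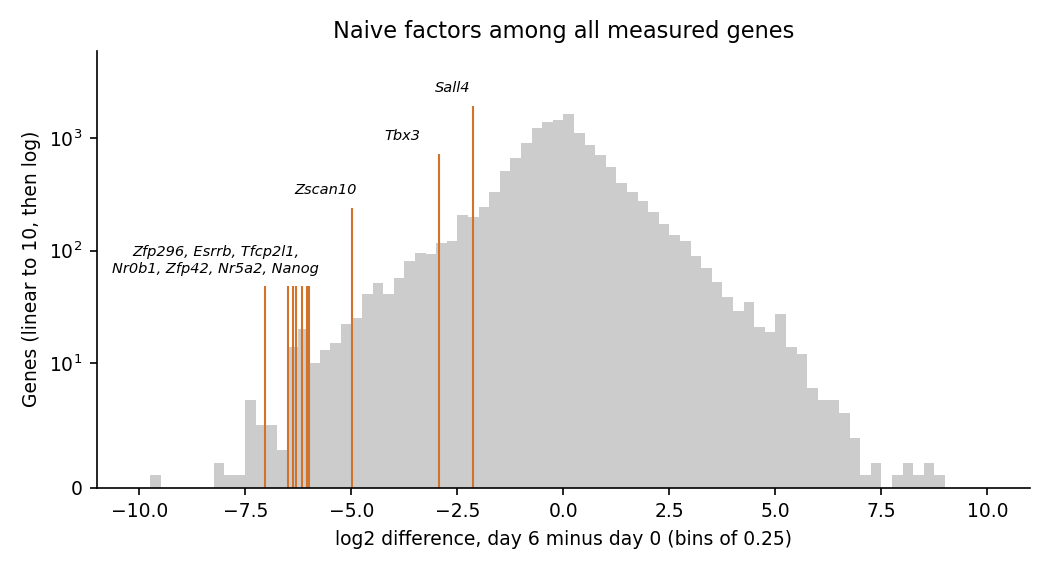
Number of measured genes (vertical axis, linear to 10 and then log) by log2 difference between day 6 and day 0, in bins of 0.25, with orange lines at the values of the 10 naive factors. Of these, 7 lie between -7.03 and -5.99, and Zscan10 (-4.99), Tbx3 (-2.93) and Sall4 (-2.12) lie nearer to 0.

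Nanog, the homeodomain factor that sustains self-renewal when LIF is limiting, went from an intensity of 26750 on day 0 to 492 on day 6. Its day 6 signal was 5.77 times the lowest signal that was well above background on that array, so a low level was still measured. The difference was -5.99 ± 0.21 (63.5-fold lower), the 60th lowest of the 14967 genes. The single Nanog probe lies at chr6:122750894-122750953 on the plus strand of mm7, the build named in the scanner file headers. All probe positions below are in mm7, and whether a probe lies in coding sequence or a UTR was not analysed here.

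The 3 nuclear receptor genes had near-equal differences. Esrrb, an oestrogen-related receptor that binds many of the sites bound by Nanog and Oct4, had intensities of 34215 on day 0 and 442 on day 6, a difference of -6.50 ± 0.21 (90.2-fold lower). Nr0b1 (Dax1), which lacks the usual DNA-binding domain of nuclear receptors and represses other factors, had intensities of 62964 and 934, a difference of -6.30 ± 0.21 (78.7-fold lower). Nr5a2 (Lrh-1), a receptor that binds control regions of Pou5f1, had intensities of 21912 and 387, a difference of -6.05 ± 0.22 (66.1-fold lower). On day 6 each of the 3 probes was well above background, with 1.11% of the normalized day 0 signal left for Esrrb, 1.27% for Nr0b1 and 1.51% for Nr5a2. The probes lie at chr12:84523822-84523881 for Esrrb, chrX:81582482-81582541 for Nr0b1 and chr1:136732418-136732477 (minus strand) for Nr5a2.

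A second Esrrb probe lies 6320 bases upstream of the first, at chr12:84517502-84517561, and was taken from a separate cDNA record. Its intensity was 1179 on day 0 and 38.2 on day 6, where it was not well above background. Such a fold is a lower bound, set against the lowest signal well above background on the dim array, and this probe was at least 16.2-fold lower. Having passed through day 0 alone, it could only be lower. Its difference was -3.32 without background subtraction and -3.53 with another background correction (normexp). Both are smaller than that bound, so the bound depends on the background correction.

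Tfcp2l1 and Tbx3 are both targets of LIF signalling, through STAT3 for Tfcp2l1 and mainly through phosphoinositide 3-kinase for Tbx3, and they stood apart in these data. Tfcp2l1 had intensities of 20293 on day 0 and 286 on day 6, a difference of -6.37 ± 0.22 (82.8-fold lower), at chr1:118545588-118545647. Its other 3 probes were well above background on day 0 only. They went from 2667 to 28.1 (at least 36.6-fold lower), from 1301 to 46.2 (at least 17.8-fold lower) and from 405 to 17.9 (at least 5.55-fold lower). These 3 probes passed through day 0 alone and could only be lower, so they add nothing to the direction of the brightest. Without background subtraction the differences of the first and second of them were -4.40 and -3.33. With normexp they were -4.68 and -3.52. All of these are smaller than the bounds, which thus depend on the background correction.

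Tbx3 had intensities of 10802 on day 0 and 1652 on day 6, a difference of -2.93 ± 0.20 (7.63-fold lower). Its probe, at chr5:118918450-118918509, kept 13.1% of the normalized day 0 signal and was 19.4 times the lowest signal well above background on day 6. A second Tbx3 probe, 11732 bases upstream and taken from a different cDNA record, had intensities of 27.7 and 17.7 and was well above background on neither array, so it gives no level. Tbx3 is also active in extraembryonic endoderm, limb, heart and ventral hypothalamus, so a level on day 6 is not by itself a pluripotency signal.

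Among the zinc finger genes, Zfp296, a factor abundant in ES cells and germ cells, had the lowest difference of the 10. Its brighter probe went from 57014 to 510, a difference of -7.03 ± 0.21 (130-fold lower), the 17th lowest of all measured genes. The other Zfp296 probe starts 62 bases away and went from 22997 to 305, a difference of -6.46 ± 0.22 (88.0-fold lower). The probes lie at chr7:17262951-17263010 and chr7:17262889-17262948. Their day 6 signals were low but well above background on that array.

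Zfp42 (Rex1), whose activity is widely used as a reporter of the naive state, had the brightest probe of the set. It went from 263017 on day 0 to 4261 on day 6, a difference of -6.17 ± 0.20 (72.0-fold lower), and the day 6 signal was still 50.04 times the lowest signal well above background. Its second probe went from 205982 to 2871, a difference of -6.39 ± 0.20 (83.7-fold lower). The probes, at chr8:42080746-42080805 and chr8:42080786-42080857 on the minus strand, overlap and share 20 bases, so they read nearly the same stretch of RNA and are not separate evidence.
Shared bases of the Zfp42 probes: TGTGCTATTGAAGGGGATGG

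Zscan10 (named Zfp206 on the array), a SCAN-domain factor that binds with Oct4 and Sox2, went from 36909 to 1353. Its difference was -4.99 ± 0.20 (31.8-fold lower), and 3.14% of the normalized day 0 signal was left. The probe lies at chr17:21790814-21790873.

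Sall4, a spalt-family factor that recruits the NuRD chromatin complex and is also expressed in germ cells and early embryonic tissues, had the smallest difference. Its brighter probe, at chr2:168541487-168541546 on the minus strand, went from 36411 to 9763, a difference of -2.12 ± 0.20 (4.35-fold lower). That left 23.0% of the normalized day 0 signal, 115 times the lowest signal well above background. The second Sall4 probe, at chr2:168545326-168545385, went from 1722 to 716, a difference of -1.49 ± 0.21 (2.81-fold lower). This probe, whose sequence follows because it reads all 3 RefSeq transcripts that the scanner file lists for it, differed from the brighter one by 0.63.
Sall4 probe: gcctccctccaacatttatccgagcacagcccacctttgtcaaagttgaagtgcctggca

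**Figure D3:**
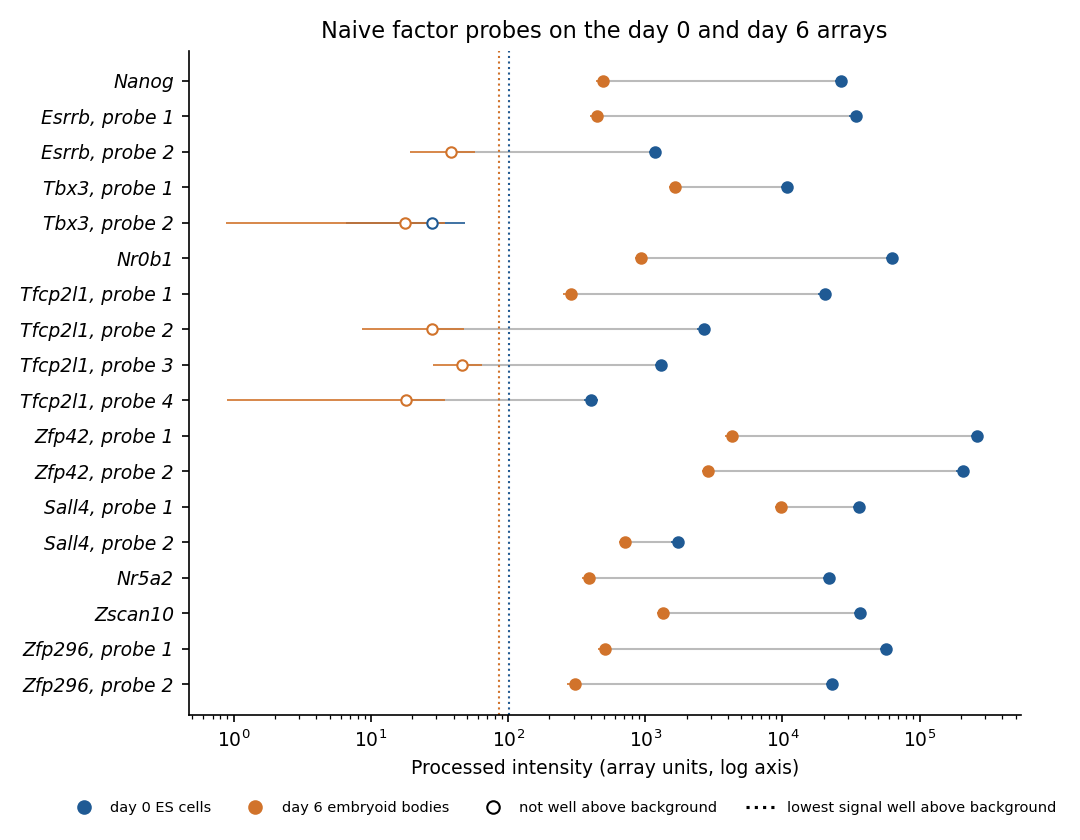
Processed intensity of all 18 probes of the 10 genes on day 0 (blue) and day 6 (orange), on a log axis in array units, with bars for the software's error (kept above 0) and open circles where a probe was not well above background. All 18 probes are drawn lower on day 6, but both signals of probe 2 of Tbx3 are below the dotted lines, the lowest signals well above background, and give no difference.

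The 18 probes were each spotted once, and 0 were flagged as outliers or saturated. Well above background on both arrays were 13, on day 0 only 4 and on neither 1. At least 2-fold lower were 17 of the 17 probes that passed the filter, beside 18.1% of all 28378 probes, and at least 16-fold lower were 13, beside 1.28%. A probe could pass through day 0 alone, so the 4 such probes had to be lower. For the 3 genes with several probes measured on both arrays, the range between probes was 0.22 (Zfp42), 0.57 (Zfp296) and 0.63 (Sall4), beside a median of 0.36 over 5510 such genes. Between spots of probes printed 10 times, the median SD was 0.0541 on day 0 and 0.0485 on day 6 (127 probes each).

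From the lowest difference upwards the order was Zfp296, Esrrb, Tfcp2l1, Nr0b1, Zfp42, Nr5a2, Nanog, Zscan10, Tbx3 and Sall4. Among the first 7, no gene differed from its neighbour in the order by more than 2 software SDs of the gap, the widest gap being 0.53 between Zfp296 and Esrrb. The next gaps exceeded 2 such SDs: 0.996 from Nanog to Zscan10, 2.06 from Zscan10 to Tbx3 and 0.81 from Tbx3 to Sall4. These are differences of each gene from itself, and intensities of different probes cannot be ranked against each other. Only genes next to each other in the order were compared. The first 7, from Zfp296 (-7.03) to Nanog (-5.99), were therefore not shown to be equal. The 3 other genes with differences nearest to the median of the 10, measured over the 2 arrays, were Morc1 (-6.10), Khdc3 (-6.09) and the secreted phosphoprotein gene Spp1 (-6.13).

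**Figure D4:**
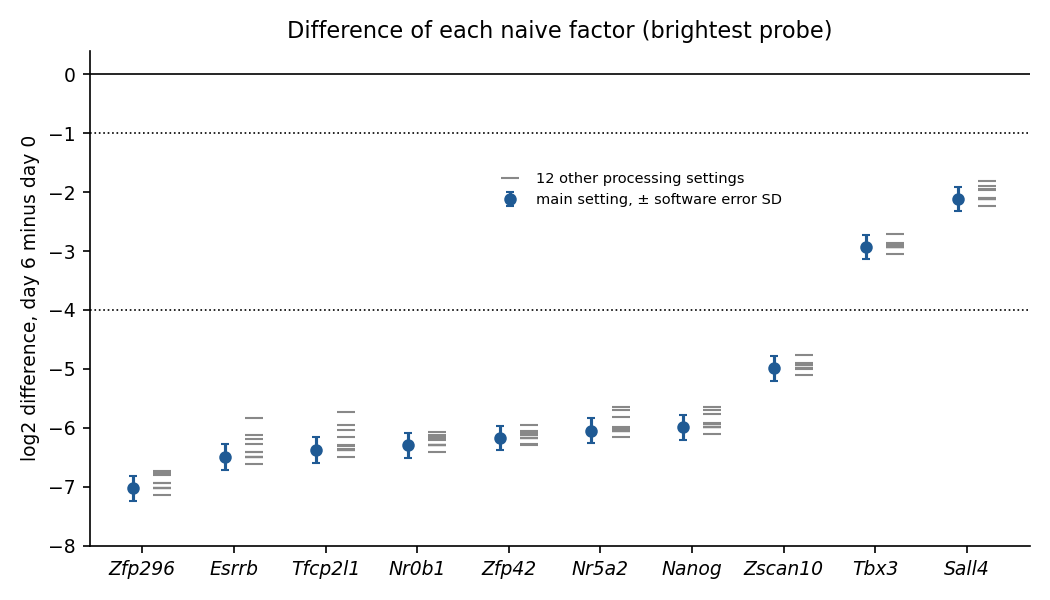
Log2 difference between day 6 and day 0 of the brightest probe of each gene (blue, with the software error SD) and the values under 12 other processing settings (grey), with dotted lines at 2-fold and 16-fold lower. Under every setting drawn the values are below the 2-fold line, and those of Tbx3 and Sall4 are above the 16-fold line.

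Relatives of the 10 genes were counted from a list of their families. Of the 23 measured genes of the relatives list, 4 were at least 2-fold lower, 8 higher and 11 within 2-fold. These stand beside 20.0%, 17.8% and 62.2% of all measured genes, and the list median was 0.24. Tbx15, counted lower, was measured on day 0 only, and Esrrg, counted higher, on day 6 only, so their sides were fixed. Over relatives measured on both arrays, 3 were lower and 7 higher. For Esrrb, the relative Esrra went from 4439 to 6109 (0.24 ± 0.20), and Esrrg was measured on day 6 only, from 23.3 to 684 (at least 5.73-fold higher), while its other probe (97.5 and 97.8) was well above background on day 6 only. For Sall4, the relative Sall1 went from 1329 to 1183 (-0.39 ± 0.21), Sall2 from 4895 to 24654 (2.11 ± 0.20, 4.32-fold higher) and Sall3 from 2353 to 5671 (1.05 ± 0.20). So of the 4 spalt genes Sall4 was lower while Sall2 and Sall3 were higher.

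For Tfcp2l1, Tfcp2 went from 331 to 947 (1.29 ± 0.23, 2.45-fold higher) and Ubp1 from 15833 to 10475 (-0.82 ± 0.20). More distant Tfcp2l1 relatives of the grainyhead branch, epithelial regulators, were lower: Grhl1 by a difference of -3.95 and Grhl2 by -3.93. Yy1, the ubiquitous relative of Zfp42, went from 32875 to 23568 (-0.70 ± 0.20), and its probes disagreed in sign, with 0.29 for another. Nr5a1, the relative of Nr5a2, was near background with 147 and 109 (-0.65 ± 0.36). Tbx2, the closest relative of Tbx3, went from 368 to 513 (0.26 ± 0.23), Tbx1 was 8.11-fold higher, and the mesoderm factor T (Brachyury) had a difference of -0.05. Nr0b2, the relative of Nr0b1, and Yy2 had no measured probe, nor had Tbx4, Tbx5, Grhl3 and Zscan26.

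Of 20 measured protein partners and co-regulators of the 10 factors, 6 were at least 2-fold lower, 1 was higher and 13 were within 2-fold, with a median of -0.59. The 6, 1 and 13 stand beside 20.0%, 17.8% and 62.2% of all measured genes. Lower were Mta3, a NuRD subunit (-2.39 ± 0.20), Ncoa3, the co-activator that Esrrb and Nr5a2 use (-2.25 ± 0.20), and the co-repressor Ctbp2 (-1.77 ± 0.20). Chd4, the helicase of NuRD, which binds Sall4, went from 55011 to 60034 (-0.10 ± 0.20).

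The core and other pluripotency factors, which include the POU and Klf genes, were lower in 13 of 14 measured genes and higher in 0, with a median of -3.49. Pou5f1 (Oct4) had a difference of -7.33, Klf2 -6.25 and Klf4 -4.91, while Sox2, a factor of ES cells and neural progenitors alike, had -0.43. Effector and target genes of the network were lower in 17 of 19 and higher in 0, with a median of -5.25. The Nodal inhibitor gene Lefty2 (-7.45), the Nodal co-receptor gene Tdgf1 (-7.42) and Dnmt3l (-7.14), a methyltransferase cofactor, were the lowest, and the RNA-binding protein gene Lin28a had -0.54. Prdm14 of the first list and Fgf4 of the second were not measured. Foxd3 of the first list and Pecam1 of the second were measured on day 0 only and could only be lower. Over genes measured on both arrays, 12 of the first list and 16 of the second were lower. The counts of both lists stand beside 20.0% of all measured genes lower and 17.8% higher.

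Genes of LIF and STAT3 signalling, the input to Tfcp2l1 and others of the 10, were lower in 8 of 11 and higher in 1, with a median of -1.30. Bcl3 (-7.19), Junb (-2.74) and Socs3 (-2.32), the feedback inhibitor induced by STAT3, were lower. The kinase gene Jak2 was higher (2.29), and Jak1 had -0.13. The counts of this list and the next stand beside 20.0% of all measured genes lower and 17.8% higher. Genes of the primed epiblast and of exit from the naive state were lower in 9 of 15 and higher in 2, with a median of -1.11. Etv5 (-5.98), Etv4 (-3.60) and Dnmt3b (-3.25) were lower, Sox4 (2.05) and Otx2 (1.53) were higher, and Dnmt3a had -0.70. Sox3 was not measured. Zic5 was measured on day 0 only and could only be lower. Over genes of the primed list measured on both arrays, 8 were lower. These lists and the 10 genes were read on the same pair of arrays, so their values are not separate evidence.

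**Figure D5:**
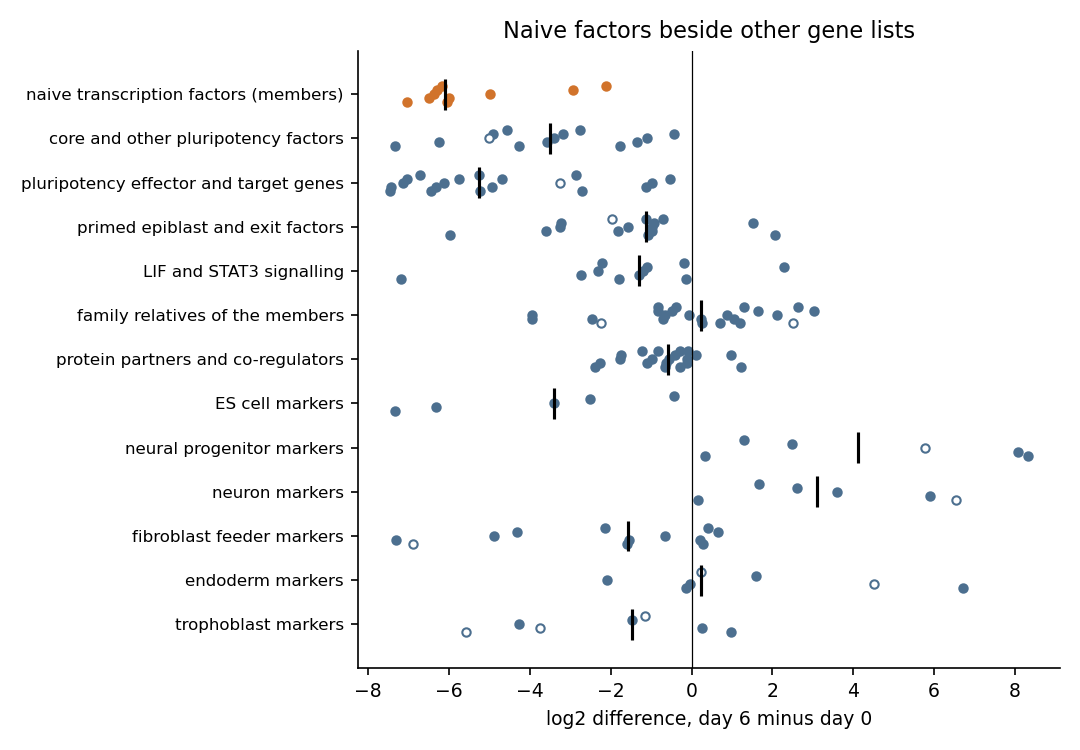
Log2 difference between day 6 and day 0 of each measured gene of 13 lists (points; open where the gene was well above background on 1 array only, drawn at its bound) and the median of the points as drawn (black bars). The 10 naive factors (orange) have a median of -6.11, the relatives 0.24 and the neural progenitor markers 4.13.

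Markers of the labelled cells and of other cells also differed between the arrays. The counts of each marker list, here and in the next paragraph, stand beside 20.0% of all measured genes lower and 17.8% higher. ES cell markers were lower in 4 of 5 measured genes (median -3.41, summed intensity 191641 on day 0 and 66731 on day 6). Among the lower were Pou5f1, Dppa4 (-6.33) and Utf1 (-3.41). Pou5f1, Utf1 and Sox2 were already counted, by the same probes, among the core factors, and Dppa4 among the effector genes. Of the measured ES cell markers only Alpl was not in those lists. Sox2, within 2-fold, made 66002 of that sum on day 0 and 57171.5 on day 6. Neural progenitor markers were higher in 5 of 6 (median 5.23, summed intensity 37305 and 320914), with Fabp7 319-fold, Hes5 268-fold and Pax6 5.61-fold higher and Nes at 0.34. Pou3f2 was measured on day 6 only and could only be higher. The median was 4.13 with Pou3f2 at its bound and 2.49 over genes measured on both arrays, of which 4 were higher. Neuron markers were higher in 5 of 6 (median 3.104, 35181 and 215534), among them Elavl4 (5.89), Map2 (3.60) and Elavl3 (2.60), with Stmn2 at 0.16. Dcx was measured on day 6 only and could only be higher. Over neuron markers measured on both arrays, 4 were higher and the median was 2.60.

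Fibroblast markers, which the feeders could supply, were lower in 7 of 12 and higher in 0 (median -1.57, summed intensity 157266 on day 0 and 40218 on day 6). S100a4 (-7.31), Thy1 (-4.89) and Col1a1 (-4.32) were lower, and Col3a1 had 0.22. Lox was measured on day 0 only and could only be lower. Over fibroblast markers measured on both arrays, 6 were lower. Endoderm markers were lower in 1 of 7 and higher in 3 (median 0.72, 3381 and 56569), with Foxa2 at 6.71, Sox7 at -2.09, Sox17 at 1.59 and Dab2 at -0.04, and Afp, Apoa1 and Ttr were not measured. That median is the value of Gata4, measured on day 6 only. The endoderm median was 0.24 with Gata4 at its bound and -0.040 over genes measured on both arrays. Foxa1, counted higher, was measured on day 6 only and could only be higher. Over endoderm markers measured on both arrays, 2 were higher. Foxa2 made 411 of the summed endoderm intensity on day 0 and 50104 on day 6. Trophoblast markers were lower in 5 of 7 and higher in 0 (median -1.46, 193240 and 79345), with Tfap2c at -4.27, Krt8 at -1.46, Gata3 at 0.97 and Krt7 at 0.25. Tfap2c was also counted, by the same probe, among the core and other pluripotency factors. Cdx2, Hand1 and Ascl2 were measured on day 0 only and could only be lower, and Elf5 was measured on neither array. Over trophoblast markers measured on both arrays, 2 were lower and the median was -0.61. Krt8 made 161455 of the summed trophoblast intensity on day 0 and 68395 on day 6. The part of feeder fibroblasts, neural cells, endoderm and trophoblast in the values of Tbx3, Sall4 and the other 8 genes was not tested.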

How the data were processed

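Per the file headers, each array (design 014868) was read in 1 channel with Feature Extraction 9.5.3.1, and the deposited intensity was background-subtracted and detrended. The authors also deposited a log2 value table whose sorted columns differed by at most 0.000469; the sources used here do not give its steps. The 10 genes and all lists were chosen with earlier results of these data known.

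Outlier and control spots were left out. Spots of a probe were averaged on the log2 scale, and each array's 75th percentile (3746 on day 0, 4371 on day 6) was subtracted. Well above background were 61.5% and 65.5% of 41174 gene probes. Both arrays lay on 1 slide, and position cannot be told apart from group. Precision is limited by the number of arrays. Names came from accessions, then symbols, of a RefSeq table (GRCm38.p6). A gene took its measured probe of highest mean log2 intensity. Below 1 array's background, the fold is a bound. The software's multiplicative error is set at 0.1, which fixes most of its SD for bright probes.

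Named were all 10 genes, their closest relatives, in each list the 3 largest and the 1 smallest absolute differences among genes measured on both arrays, and the 3 genes nearest the median. Sox4, Otx2, Jak2, Prdm14, Gata4 and the unmeasured or one-array genes were named after their values were seen. Python 3.11.15, numpy 2.4.6, pandas 2.3.3 and limma 3.58.1 (normexp, offset 50) were used, and scripts were tested on simulated data. Alternatives were the background correction, scaling, deposited table, flags, bounds, probe choice and dim-probe filter. Protein features were not analysed here.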

Additional observations from a re-analysis of the deposited data

How the results depend on the processing

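Over 12 alternative settings, 96 of the 120 differences of the 10 genes moved by less than the software SD, 24 moved by more and 0 turned sign, with values from -7.14 to -1.80. The counts of the 10 genes at least 2-fold and 16-fold lower stayed at 10 and 8. By accession alone, 12 of the 18 probes and 9 of the 10 genes were found. Of the 153 differences of probes, 37 moved by more than the software SD and 0 turned sign. Without background subtraction, the second Esrrb probe (-3.32) and a Tfcp2l1 probe at each of -4.40 and -3.33 fell short of their bounds. With normexp the same probes also fell short (-3.53, -4.68 and -3.52). In the 100 bases before a start the octamer was left in 1 of 8 genes (1.49% of all windows), the Sox letters in 1 (4.27%), the STAT letters in 1 (2.55%) and the Kruppel-like letters in 4 (14.0%). Counted by window, these were 1, 1, 1 and 4 of 11.

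The median of the 10 genes was -5.87 with normexp, -5.80 without background subtraction and -5.89 without scaling. All genes at least 16-fold lower numbered 182, 168 and, on both arrays, 179, in place of 277. The median of all genes was 0.13 without scaling and -0.21 with median scaling, and higher genes were 57.8% of those past 2-fold without scaling (3282 against 2396) in place of 47.1% (2664 against 2996). With normexp, without background subtraction and without scaling, the core factor median was -3.28, -3.23 and -3.27. With normexp and without background subtraction, neural progenitors had 3.99 and 3.89 and endoderm 0.30 and 0.25. Without scaling, medians were -5.03 for effectors, -0.89 for primed genes, -1.07 for LIF genes, 0.46 for relatives, -0.37 for partners, -3.19 for ES markers, 3.33 for neurons, -1.35 for fibroblasts and -1.24 for trophoblast, with 1 trophoblast gene higher. Partners numbered 2 higher with quantile normalization, no scaling, the deposited table and the mean of probes. Trophoblast had -1.22 with quantile normalization and -1.16 in the deposited table. With dim arrays at the bound, neural progenitors had 4.13 and endoderm 0.24. Neurons had 2.71 with the mean of probes. With only genes on both arrays, effectors had -5.51, neural progenitors 2.49, neurons 2.60, endoderm -0.040 and trophoblast -0.61 (2 lower); without a filter, endoderm had 0.40. Further list counts also changed. Partners lower numbered 4 with quantile normalization and in the deposited table and 8 with the mean of probes, in place of 6. Primed genes lower numbered 7 without scaling and 12 with median scaling, in place of 9. LIF genes lower numbered 6 without scaling, in place of 8. Neural progenitors higher numbered 4 with normexp and without background subtraction, in place of 5. The cause was not tested. No paired analysis was possible because neither group had a second array; leaving out a replicate was likewise not possible.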

Other observations

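Genes next to the 10 naive factors along the chromosomes were read in the RefSeq order of GRCm38.p6, taking the nearest 2 measured protein-coding genes on each side, a rule chosen after the data were seen. Of these 40 neighbours, 14 (35%) were at least 2-fold lower on day 6, beside 20.0% of all measured genes, 5 were at least 16-fold lower (1.85% of all measured genes), 4 were higher (17.8%) and 22 were within 2-fold (62.2%). Their median difference was -0.56. Mageb4, Ptprc and Mmp25, counted among the lower, were measured on day 0 only and could only be lower. Tshz2, counted among the higher, was measured on day 6 only and could only be higher. On one side of Nanog lie Dppa3 (-4.68), a maternal-effect gene that protects methylation in the early embryo, and Gdf3 (-6.43), a ligand of the TGF-beta family, while on the other side Slc2a3 (-0.10) and Foxj2 (0.43) were within 2-fold. Beside Zfp42, Triml1 went from 18468 to 259 (-6.38). The next genes were Frg1 (-0.50) on that side and Fat1 (-1.18) on the other.

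Beside Zscan10, Mmp25 was at least 17.7-fold lower and Bicdl2 had -3.62, while Zfp13 (-0.34) and Zfp40 (1.24) lie on the other side. Inhbb, a subunit of activin, is a neighbour of Tfcp2l1 and had -4.01, and Relb, an NF-kappaB factor near Zfp296, had -2.83. Beside Tbx3, the forebrain factor gene Lhx5 was higher (5.12). Esrrb was the only 1 of the 10 without a neighbour counted as at least 2-fold lower. For Nr0b1 and Nr5a2, however, the only such neighbours were Mageb4 and Ptprc, which could only be lower. Over neighbours measured on both arrays, Esrrb, Nr0b1 and Nr5a2 all had none at least 2-fold lower. No test was made of these neighbours, and no cause was tested.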
